A study of Mus musculus with 2 samples.

Results

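The chemokines and their receptors, apart from Cxcl12 and its receptors, were examined in newborn mouse cranial sutures. Members were taken by gene symbol: numbered CC, CXC, CX3C or XC ligands, receptors of these classes, atypical chemokine receptors, Pf4 and Ppbp. Cxcl12, Cxcr4 and Ackr3 were left out, and symbols of other forms, such as Ccrl2 and Ccr1l1, were not taken. This selection gave 53 genes of 23930, of which 34 were ligands, 17 were signalling receptors and 2 were atypical receptors. The samples were 2 bulk RNA libraries of wildtype pups at postnatal day 3, both from dissected coronal, sagittal and lambdoid sutures, the fibrous joints in which the skull bones grow. They form 1 group with 1 batch number, so no condition could be compared. Whether each library is a separate pup or a pool is not stated in the labels, so a difference between them may be technical. Suture stem cells are the labelled cell type, but the protocol describes tissue and no sort, so bulk tissue was assumed. In bulk RNA, fewer cells of a type and less RNA per cell cannot be told apart.

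Chemokines are small secreted proteins that guide the migration of leukocytes and of some stem and progenitor cells along gradients. They are classed by the spacing of their first cysteines, and they signal through receptors coupled to inhibitory G proteins. Atypical receptors bind chemokines without that signal and clear them from the tissue. In bone, chemokines are known for recruiting osteoclast precursors and marrow leukocytes, and platelets and mast cells store or release several of them.

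Levels are given in CPM, the reads of a gene's amplicon scaled to the library total. Since 1 amplicon stands for a gene, reads do not grow with its length, but amplicons amplify unequally, and levels of different genes are compared with that reserve. A gene called for a library had more reads there than the library totals give, in an exact two-sided binomial test with Benjamini-Hochberg adjustment over all targets at 0.05. Library 1 held 5663344 reads and library 2 held 15802610. A gene read 0 times may have up to 0.530 or 0.190 CPM, by library. Markers of neighbouring tissues differed between the libraries. The 6 skeletal muscle markers summed to 39216 and 11878 CPM in libraries 1 and 2. The 5 olfactory sensory neuron markers summed to 85.8 and 430 CPM, and 12 genes of airway and nasal epithelium, listed after the first values were seen, to 69.6 and 527 CPM. All 7 suture mesenchyme markers reached 1 CPM in both libraries, and 2 were called for library 1, 4 for library 2 and 1 for neither. Their sums of 708 and 699 CPM follow Postn (445 and 331 CPM), whereas Six2 was 4.15-fold and Gli1 2.02-fold higher in library 2. Markers of macrophages, neutrophils, osteoclasts, endothelium and neurons were also present, so the values describe the whole dissected tissue.

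The start regions of the genes that lead the results are shown for a pair of neighbours on chromosome 5 and a pair on chromosome 11, since both genes of each pair had more CPM in library 1. Each is the stretch of 250 bases before the annotated start (RefSeq, GRCm38.p6), read 5′ to 3′ on the gene's own strand. Capitals mark matches on either strand to the 3 motifs searched, AGATAA (bound by erythroid and megakaryocyte factors), GAGGAA (bound by ETS factors of myeloid cells) and TATAAA (bound by the basal transcription machinery).
Pf4, chr5:90772185-90772434, plus strand: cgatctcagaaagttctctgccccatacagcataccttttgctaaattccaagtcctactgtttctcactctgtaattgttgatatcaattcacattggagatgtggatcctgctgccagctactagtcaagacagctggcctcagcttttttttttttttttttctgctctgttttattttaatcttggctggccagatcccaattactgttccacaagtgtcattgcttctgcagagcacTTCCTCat
Ppbp, chr5:90768268-90768517, plus strand: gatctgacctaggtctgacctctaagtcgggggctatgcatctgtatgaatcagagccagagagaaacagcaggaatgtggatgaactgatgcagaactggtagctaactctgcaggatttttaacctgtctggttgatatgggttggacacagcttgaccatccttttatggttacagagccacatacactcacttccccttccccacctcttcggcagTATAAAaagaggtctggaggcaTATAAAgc
Ccl9, chr11:83578637-83578886, minus strand: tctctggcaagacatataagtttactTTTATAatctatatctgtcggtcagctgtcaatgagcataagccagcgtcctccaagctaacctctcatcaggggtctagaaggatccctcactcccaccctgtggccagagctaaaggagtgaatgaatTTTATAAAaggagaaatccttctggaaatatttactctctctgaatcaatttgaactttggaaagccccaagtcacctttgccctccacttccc
Ccl6, chr11:83593088-83593337, minus strand: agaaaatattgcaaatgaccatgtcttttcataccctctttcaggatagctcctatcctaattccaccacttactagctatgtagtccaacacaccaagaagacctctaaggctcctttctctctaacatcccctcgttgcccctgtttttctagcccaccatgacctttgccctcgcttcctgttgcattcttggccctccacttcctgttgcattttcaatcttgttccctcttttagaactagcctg
The window of Pf4 held 1 match to GAGGAA, on the opposite strand, at position -8 from the start. The window of Ppbp held 2 matches to TATAAA, at positions -30 and -8. The window of Ccl9 held 3 matches to TATAAA, at positions -224, -94 and -92, and the last 2 of these overlap. The window of Ccl6 held no match. Among 32851 windows of the same length, 12.4% held the motif TATAAA, 23.3% the motif GAGGAA and 9.99% the motif AGATAA. Such matches describe the letters only. RefSeq windows were found for 38 of the 53 members.

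The tissue held more chemokine ligand than receptor reads, and few genes carried most of them. Of 34 ligands, 16 reached 1 CPM in both libraries, which is called detected here, and 5 reached 10 CPM in both. Of 19 receptors, 6 were detected and 2 reached 10 CPM in both. The 22 detected members were 41.5% of the 53, beside 55.0% of all targets. The median of the mean levels was 1.41 CPM for ligands and 0.627 CPM for receptors, beside 3.29 CPM over all targets. Ligands summed to 324 and 213 CPM in libraries 1 and 2, and receptors to 72.4 and 52.0 CPM. Pf4 alone gave 35.2% of the ligand reads of library 1 (exact 95% binomial interval 33.1% to 37.5%) and 24.0% of those of library 2 (22.5% to 25.5%). These intervals, like all others here, cover counting error only, because they are computed from read counts with no spread between preparations. The reads carry no molecular identifiers, so copies made in amplification count as separate reads and even counting error may be understated.

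**Figure D1:**
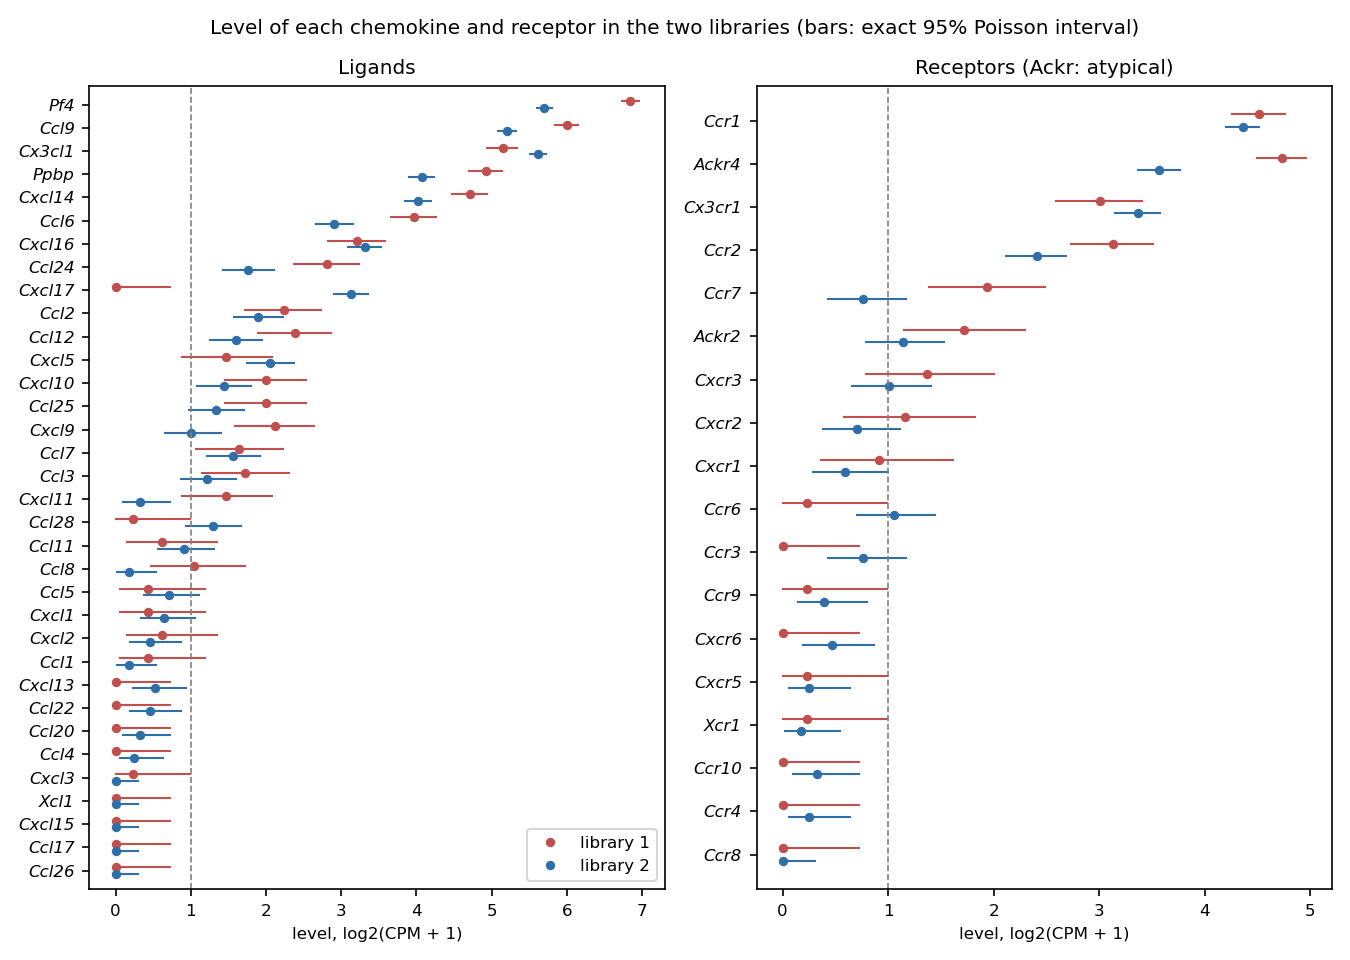
Level of the 34 ligands (left) and of the receptors reported (right) as log2(CPM + 1), with 1 point per library and the exact 95% Poisson interval of its reads as a bar. The dashed line marks 1 CPM, and 18 ligands lie below it in at least 1 library.

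Of the 53 members 13 were called for library 1, 3 for library 2 and 37 for neither. Among the 8 members averaging at least 10 CPM, the Poisson intervals of both libraries overlapped for Ccr1 and stood apart for the other 7. The share of all targets at that level with intervals apart was not computed, so this count has no background to be read against. Among all targets the exact binomial test called 17.1% higher in library 1 and 20% higher in library 2. Of the 8 members averaging at least 10 CPM, 6 were higher in library 1 and 1 in library 2, where the shares of all such targets were 32.5% and 37%. Of the 17 members with means of 1 to under 10 CPM, 6 were higher in library 1 and 1 in library 2, where the shares of all such targets were 16% and 25.1%. The 3 members higher in library 2 were Cx3cl1, Cxcl17 and Ccl28. With targets averaging under 1 CPM left out, 12 and 2 members were called, and Ccl8 and Ccl28, which lie under that mean, were not tested. The median difference on the log2(CPM + 1) scale, library 1 minus library 2, was 0.68 for the 18 ligands and 0.58 for the 7 receptors averaging at least 1 CPM, and -0.07 over all 14097 such targets. These tests compare 2 libraries of 1 group, not conditions.

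**Figure D2:**
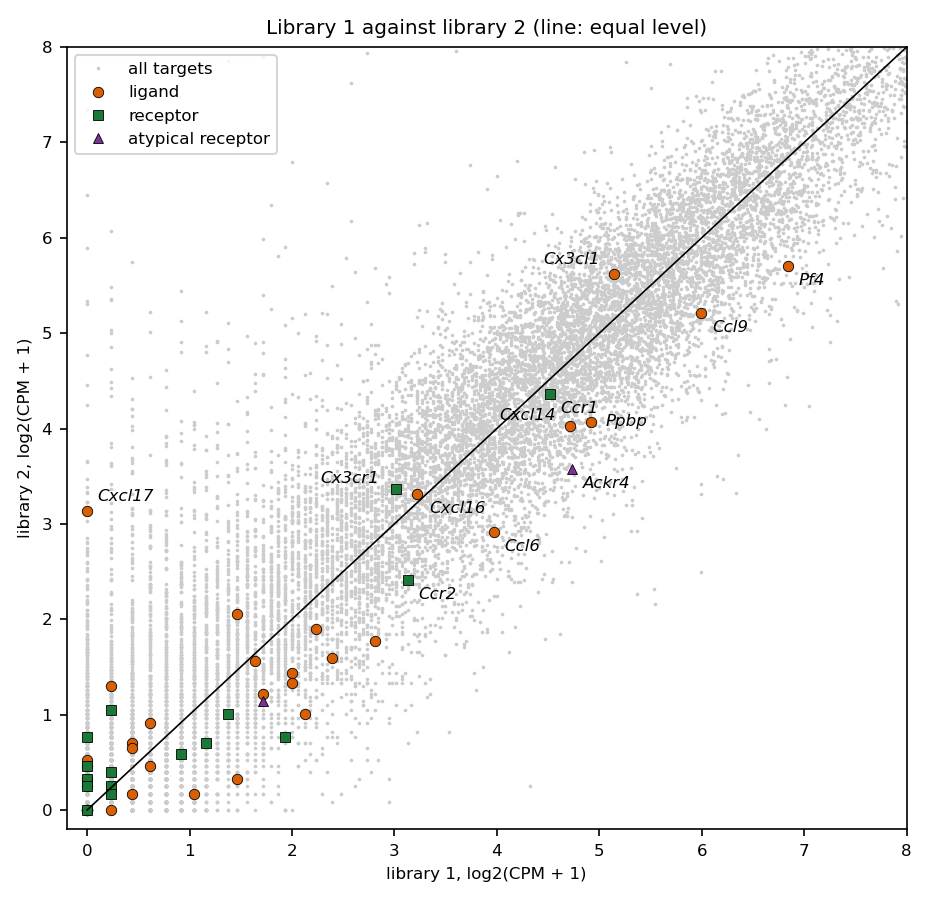
Level of every target in library 1 (horizontal) and library 2 (vertical), as log2(CPM + 1) up to 8, with the ligands, signalling receptors and atypical receptors reported marked and the line of equal level drawn. Among the 25 members averaging at least 1 CPM, 20 lie below the line, and Cxcl17 lies at 0 in library 1.

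The platelet chemokines were among the highest ligands. Pf4 (platelet factor 4), a CXC chemokine stored in platelet granules and also made by some macrophages, stood at 114 CPM in library 1 and 51.1 CPM in library 2, from 646 and 807 reads. It was the highest ligand in each library, and 91.3% of all targets lay at or below its mean of 82.6 CPM ± 44.5 (SD, n = 2). In build mm10, Pf4 spans 90772435 to 90773383 of chromosome 5. It was 2.23-fold higher in library 1 (exact 95% interval 2.01 to 2.48), a difference of 1.14 on the log2(CPM + 1) scale, with adjusted p = 4.90e-48 in the exact binomial test. Ppbp, the precursor of the platelet chemokine that attracts neutrophils through Cxcr2, stood at 29.3 and 15.8 CPM, from 166 and 250 reads (log2 difference 0.85). It lies next to Pf4, from 90768518 to 90770063, and was 1.85-fold higher in library 1 (interval 1.51 to 2.26, adjusted p = 1.39e-08, exact binomial test).

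Other genes of megakaryocytes and platelets were mostly not called. Of 10 such markers, 1 was called for library 1, 1 for library 2 and 8 for neither. They summed to 89.9 and 94.7 CPM, and these sums follow Itgb3, which stood at 52.6 and 56.0 CPM. The median of the markers was 2.10 CPM. In reads simulated with counting error only, the test called 34.1% of 2-fold changes at 1 to under 10 CPM, so a marker not called there may still differ. At 10 CPM or more, where Itgb3 and Itga2b lie, it called 98.3% of 2-fold changes. Itga2b, an integrin chain of platelets, stood at 17.0 and 14.6 CPM, and Tubb1, the tubulin of platelets, at 7.24 and 9.05 CPM. Neither Itga2b nor Tubb1 was called. The 12 macrophage markers summed to 649 and 480 CPM, with 5 called for library 1, 1 for library 2 and 6 for neither. Among these, Lyz2 stood at 308 and 157 CPM, Cd68 at 136 and 133 CPM, and Csf1r at 68.0 and 93.8 CPM. C1qb stood at 43.1 and 27.3 CPM, whereas C1qa had 0 reads in library 1 and 0.190 CPM in library 2. The part of either cell type in the Pf4 and Ppbp differences was not tested.

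The ligands of Ccr1 formed the second large group. Ccr1 is a receptor of monocytes, neutrophils and osteoclast precursors. Ccr1 stood at 21.9 CPM in library 1 and 19.6 CPM in library 2, from 124 and 309 reads (log2 difference 0.16), and was the highest signalling receptor in each. The ratio of the libraries was 1.12 (interval 0.902 to 1.38, adjusted p = 0.528, exact binomial test), so a difference was not detectable at this depth. Ccl9, a CC chemokine known from myeloid cells and osteoclasts, stood at 62.9 and 35.9 CPM, from 356 and 568 reads (log2 difference 0.79). It was 1.75-fold higher in library 1 (interval 1.53 to 2.00, adjusted p = 1.01e-14, exact binomial test). Its neighbour and close relative Ccl6 stood at 14.7 and 6.52 CPM, from 83 and 103 reads (log2 difference 1.06), and was 2.25-fold higher in library 1 (interval 1.66 to 3.03, adjusted p = 6.03e-07, exact binomial test). Both lie on chromosome 11, Ccl9 from 83572919 to 83578636 and Ccl6 from 83587882 to 83593087.

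The other ligands of Ccr1 were far lower. Ccl3, made by activated macrophages, stood at 2.30 and 1.33 CPM. Ccl7, a monocyte attractant, stood at 2.12 and 1.96 CPM. Ccl5, a product of T cells and platelets, stood at 0.353 and 0.633 CPM. None of these was called between the libraries. Summed over 5 ligands, the group held 82.3 and 46.4 CPM, more than the receptor in both libraries. Osteoclast markers, all 10 detected, summed to 3452 and 2404 CPM, with 2 called for library 1, 3 for library 2 and 5 for neither. These sums follow Mmp9 (1784 and 1354 CPM) and Acp5 (1299 and 622 CPM), the markers called for library 1. The median log2 difference of the osteoclast markers was 0.052. The part of osteoclasts in the Ccl9 and Ccl6 differences was not tested.

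Monocyte recruitment genes were present at a few CPM. Ccr2, the receptor that brings inflammatory monocytes into tissue, stood at 7.77 CPM in library 1 and 4.30 CPM in library 2 and was 1.81-fold higher in library 1 (interval 1.21 to 2.68, adjusted p = 0.0113, exact binomial test). Its ligand Ccl12 stood at 4.24 and 2.03 CPM and was 2.09-fold higher in library 1 (interval 1.18 to 3.67, adjusted p = 0.0265, exact binomial test). Ccl2, the main ligand of Ccr2, stood at 3.71 and 2.72 CPM and was not called (ratio 1.36, interval 0.768 to 2.35). Of the other monocyte markers, F13a1 stood at 59.5 and 39.8 CPM and Plac8 at 33.5 and 20.6 CPM, both higher in library 1. Fn1, also a matrix gene, stood at 746 and 1410 CPM and was higher in library 2.

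Cx3cl1 and its only receptor were both detected. Cx3cl1 (fractalkine) is a membrane-bound chemokine of neurons and endothelium. It stood at 34.4 CPM in library 1 and 48.1 CPM in library 2, a mean of 41.3 CPM ± 9.66 (SD, n = 2), from 195 and 760 reads (log2 difference -0.47). It was 1.40-fold higher in library 2 (interval 1.19 to 1.64, adjusted p = 9.15e-05, exact binomial test), against the direction of the other 5 ligands averaging at least 10 CPM. Cx3cr1, the receptor of macrophages, microglia and patrolling monocytes, stood at 7.06 and 9.30 CPM and was not called (1.32-fold in the same direction, interval 0.923 to 1.92). Ligand reads outnumbered receptor reads 4.88 to 1 in library 1 and 5.17 to 1 in library 2. All 5 neuron markers were higher in library 2, with sums of 174 and 656 CPM. The 7 blood endothelium markers summed to 670 and 485 CPM, with 4 called for library 1, 1 for library 2 and 2 for neither. Of the microglia markers P2ry12, which defines the type, stood at 1.77 and 1.65 CPM. The part of any of these cell types in the Cx3cl1 difference was not tested.

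Cxcl16, the other chemokine with a membrane anchor, had almost no receptor beside it. Cxcl16 stood at 8.30 CPM in library 1 and 8.92 CPM in library 2, which differed by less than their counting error (ratio 0.930, with an interval of 0.654 to 1.30). Cxcr6, its receptor on T and NK cells, had 0 reads in library 1 and 6 in library 2, or 0.380 CPM. Markers of T cells were likewise low, with 4 of 7 detected and sums of 12.5 and 9.36 CPM, and those of NK cells summed to 4.24 and 2.91 CPM.

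Ligands of the neutrophil receptor Cxcr2 were led by Ppbp. Cxcr2 stood at 1.24 CPM in library 1 and 0.633 CPM in library 2, from 7 and 10 reads. Ppbp reads outnumbered it 23.7 to 1 and 25.0 to 1. Cxcl5, an epithelial neutrophil attractant beside Ppbp on chromosome 5, stood at 1.77 and 3.16 CPM and was not called (adjusted p = 0.230, exact binomial test). The acute-phase attractants Cxcl1, Cxcl2 and Cxcl3 did not exceed 0.570 CPM in either library. Cxcr1, a related neutrophil receptor, stood at 0.883 and 0.506 CPM. Neutrophil granule genes, in contrast, were abundant: the 10 neutrophil markers summed to 1137 and 604 CPM, with 7 called for library 1, 1 for library 2 and 2 for neither.

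The interferon-inducible ligands of Cxcr3 were low, and 2 of the 3 were called for library 1. Cxcl9 stood at 3.36 CPM in library 1 and 1.01 CPM in library 2 (3.32-fold, interval 1.61 to 6.89, adjusted p = 0.00261, exact binomial test). Cxcl11 stood at 1.77 and 0.253 CPM, from 10 and 4 reads (6.98-fold, interval 2.01 to 30.5, adjusted p = 0.00203, exact binomial test). Cxcl11 is typed as a polymorphic pseudogene in GENCODE M21, whereas every other member is typed as protein coding. Cxcl10 stood at 3.00 and 1.71 CPM and was not called (1.76-fold, interval 0.898 to 3.34). Cxcr3, the receptor of activated T and NK cells, stood at 1.59 and 1.01 CPM and was not called. The 3 ligands lie within 44.1 kb of each other on chromosome 5. Ifng, the interferon that induces them, stood at 0.177 and 0.127 CPM, from 1 and 2 reads by the step of each library.

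Ligands of the eosinophil receptor Ccr3 were led by Ccl24. Ccl24 (eotaxin 2), known from macrophages, stood at 6.004 CPM in library 1 and 2.41 CPM in library 2. It was 2.50-fold higher in library 1 (interval 1.52 to 4.07, adjusted p = 5.93e-04, exact binomial test). Ccl11 (eotaxin 1) stood at 0.530 and 0.886 CPM, and Ccl26 had 0 reads in both libraries. Ccr3 had 0 reads in library 1 and 11 in library 2, or 0.696 CPM. Among eosinophil markers Prg2 stood at 121 and 110 CPM and Epx at 9.54 and 10.3 CPM, while Siglecf did not exceed 0.530 CPM and Il5ra did not exceed 0.0630 CPM.

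The chemokines of mucosal epithelium, Cxcl17 and Ccl28, were both called for library 2. Cxcl17, a chemokine of mucosal epithelium, had 0 reads in library 1 and 123 in library 2, or 7.78 CPM. It was at least 11.8-fold higher in library 2, by the lower limit of the exact 95% interval of the ratio (adjusted p = 1.02e-15, exact binomial test). Ccl28, a mucosal chemokine that binds Ccr10 and Ccr3, had 1 read in library 1 and 23 in library 2 (ratio 8.22, interval 1.34 to 340, adjusted p = 0.0281, exact binomial test). Of the 12 airway and nasal epithelium genes, 10 were called for library 2 and 2 for neither. Bpifa1, a secreted protein of nasal epithelium, stood at 50.7 and 226 CPM, Muc5b, an airway mucin, at 0.177 and 43.6 CPM, and Scgb1a1, a club cell protein, at 0 in both. The part of such epithelium in the Cxcl17 and Ccl28 reads was not tested.

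Cxcl14, a chemokine of skin and connective tissue with no receptor paired here, was called for library 1. It stood at 25.3 CPM in library 1 and 15.3 CPM in library 2 and was 1.66-fold higher in library 1 (143 and 241 reads, log2 difference 0.69, interval 1.34 to 2.04, adjusted p = 1.63e-05, exact binomial test). The 4 keratinocyte markers summed to 73.6 and 88.2 CPM, with 1 called for library 1, 2 for library 2 and 1 for neither.

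Both atypical receptors were detected. Ackr4, which binds and removes Ccl19, Ccl21 and Ccl25, stood at 25.6 CPM in library 1 and 10.9 CPM in library 2, from 145 and 172 reads (log2 difference 1.16). It was 2.35-fold higher in library 1 (interval 1.87 to 2.95, adjusted p = 1.46e-12, exact binomial test) and gave 35.4% of receptor reads there (interval 30.7% to 40.2%), against 21.0% in library 2 (18.2% to 23.9%). Its ligand Ccl25, a thymus and gut chemokine, stood at 3.00 and 1.52 CPM and was not called. Ccr9, the signalling receptor of Ccl25, had 1 and 5 reads. Ackr2, which clears inflammatory CC chemokines, stood at 2.30 and 1.20 CPM and was not called (1.91-fold, interval 0.867 to 4.07). Genes for Ccl19 and Ccl21 were not analysed here. Their receptor Ccr7, which guides dendritic cells and lymphocytes to lymph nodes, stood at 2.83 and 0.696 CPM and was 4.06-fold higher in library 1 (interval 1.77 to 9.67, adjusted p = 0.00123, exact binomial test). Of 6 other dendritic cell markers, 3 were called for library 1 and 3 for neither.

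Ligands were set beside their known signalling receptors, which gave 36 pairs of 30 ligands and 15 receptors. Pf4, the highest ligand, was given no pair, nor were Cxcl14, Cxcl15 and Cxcl17. In 10 pairs both sides were detected. They were Ccl9, Ccl6, Ccl7 and Ccl3 with Ccr1, Ccl2, Ccl7 and Ccl12 with Ccr2, Cxcl9 and Cxcl10 with Cxcr3, and Cx3cl1 with Cx3cr1. The ligand alone was detected in 7 pairs, the receptor alone in 2 pairs, and neither in 17 pairs. The levels on the 2 sides of a pair rest on different amplicons and say nothing of protein.

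**Figure D3:**
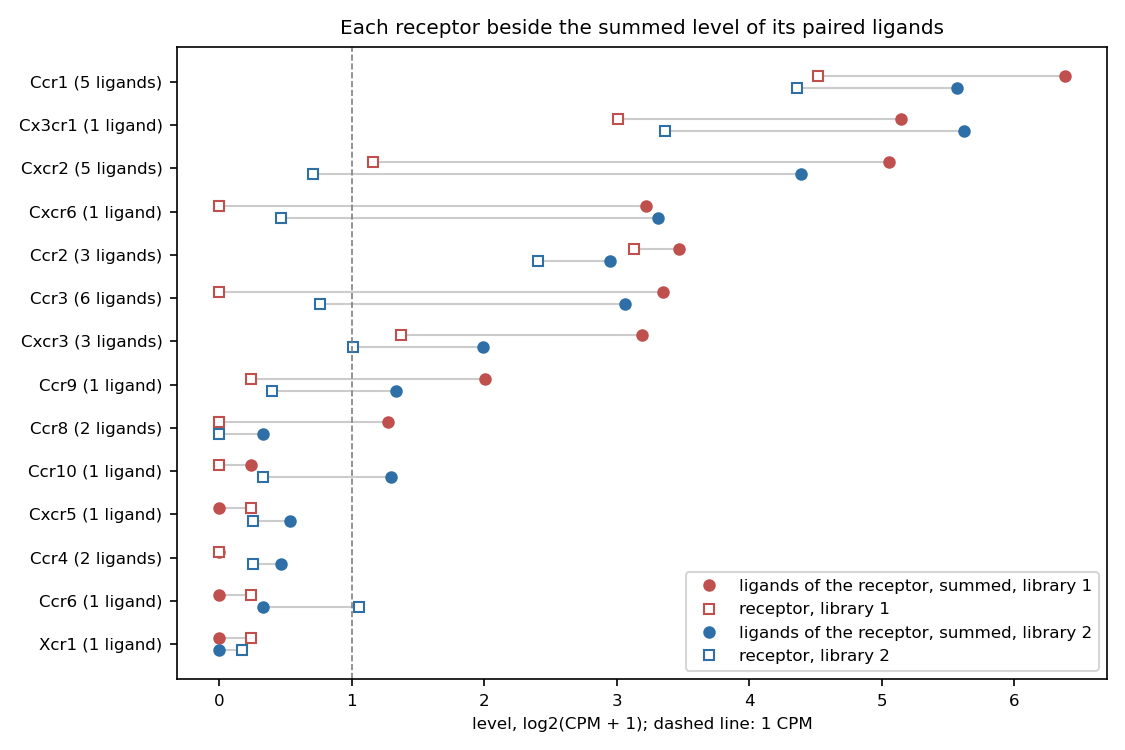
The paired receptors reported (open squares), each beside the summed level of its ligands (filled circles), in both libraries, as log2(CPM + 1), with a dashed line at 1 CPM. Ligand sums lie right of the receptor for Ccr1, Cx3cr1, Cxcr2, Cxcr6 and Ccr2 in both libraries, among others, and Cxcr6 has 0 reads in library 1.

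The remaining members were low. Under a mean of 1 CPM lay 28 of the 53 genes, 16 ligands and 12 receptors, and the highest of these was Cxcr2. Ccl17, Ccl26, Cxcl15, Xcl1 and Ccr8 had 0 reads in both libraries. Ccl8, a ligand of Ccr8, stood at 1.06 and 0.127 CPM from 6 and 2 reads and was called higher in library 1 (ratio 8.34, interval 1.497 to 84.8, adjusted p = 0.0173, exact binomial test). Ccr6, the receptor of Ccl20 on B and T cells, stood at 0.177 and 1.08 CPM, and Ccl20 at 0 and 0.253 CPM. Ccl1, Ccl4, Ccl22, Cxcl13, Ccr4, Ccr10, Cxcr5 and Xcr1 did not exceed 0.443 CPM in either library.

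The members lie mostly in a few gene clusters, and levels within a cluster were unequal. On chromosome 5, the 7 genes Cxcl5, Ppbp, Pf4, Cxcl3, Cxcl15, Cxcl1 and Cxcl2 lie within 147 kb, and their means ran from 0 CPM (Cxcl15) to 82.6 CPM (Pf4). On chromosome 11, Ccl5, Ccl9, Ccl6, Ccl3 and Ccl4 lie within 139 kb and ran from 0.0950 CPM (Ccl4) to 49.4 CPM (Ccl9). A separate group of 6 on the same chromosome, Ccl2, Ccl7, Ccl11, Ccl12, Ccl8 and Ccl1, ran from 0.240 CPM to 3.21 CPM. Of the receptors clustered on chromosome 9, Ccr1 and Ccr2 were detected, whereas Ccr9, Cxcr6, Xcr1 and Ccr3 were not. Cx3cl1 lies between Ccl22 and Ccl17 on chromosome 8, at 41.3 CPM beside means of 0.190 and 0 CPM.

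The order of the leading genes was read from the numbers of reads, as a family of 28 exact binomial tests against equal reads. Each pair was taken as neighbours in the ranking by the same reads, so its direction was fixed before the test. The p-values do not allow for that choice. Among ligands, Pf4 stood above Ccl9 in library 1 (ratio 1.81, adjusted p = 5.28e-19, exact test), whereas Pf4 and Cx3cl1 were not resolved in library 2 (ratio 1.06, adjusted p = 0.361, exact test). Ppbp and Cxcl14 were resolved in neither library. Among receptors, Ackr4 and Ccr1 were not resolved in library 1 (ratio 1.17, adjusted p = 0.346, exact test), and Ccr1 stood above Ackr4 in library 2 (ratio 1.80, adjusted p = 2.89e-09, exact test). These tests compare reads of 2 amplicons and leave their efficiency uncovered.

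Genes that act with the chemokine system were mostly expressed. Of 15 genes for G proteins and effectors behind these receptors all were detected, with 4 called for library 1, 5 for library 2 and 6 for neither. Gnai2, the inhibitory G protein subunit most used by leukocyte chemokine receptors, stood at 1388 and 1011 CPM. Of 9 receptor desensitization genes 8 were detected, with 2 called for library 1, 4 for library 2 and 3 for neither. Adrbk1, a kinase of activated receptors, stood at 96.1 and 118 CPM, and Rgs1, a brake of leukocyte G proteins, at 0.353 and 0.0630 CPM. Of 8 genes for chemokine-processing proteases 7 were detected, 4 were higher in library 1 and 2 in library 2. The sheddases Adam10 and Adam17, which release Cx3cl1 and Cxcl16 from the membrane, stood at 55.3 and 67.5 CPM and at 9.71 and 5.25 CPM.

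Inducers of inflammatory chemokines and the chemokine-like genes were uneven. Of 10 inducers 4 were detected, 0 were called for library 1, 2 for library 2 and 8 for neither. The cytokine Tnf stood at 0.530 and 0.190 CPM and Il1b at 1.06 and 0.759 CPM, beside Rela, a subunit of NF-kappa-B, at 93.8 and 112 CPM. Of 7 chemokine-like genes 5 were detected, 1 was higher in library 1 and 2 were higher in library 2. Cmklr1, the chemerin receptor, stood at 32.3 and 41.3 CPM and its ligand Rarres2 at 10.4 and 12.8 CPM.

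The lists not yet named are given for the tissue around these genes. Mast cell markers, led by the tryptase Tpsb2, summed to 187 and 122 CPM, with 2 of 6 called for library 1 and 4 for neither. B lineage markers summed to 98.2 and 87.5 CPM, with 3 of 6 called for library 1 and 1 for library 2. Lymphatic endothelium markers summed to 92.7 and 107 CPM, with 1 of 5 called for library 1 and 2 for library 2. All 7 osteoblast and all 5 chondrocyte markers were called for library 2, whereas all 3 erythroid markers were called for library 1. Their part in any member's difference was not tested.

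**Figure D4:**
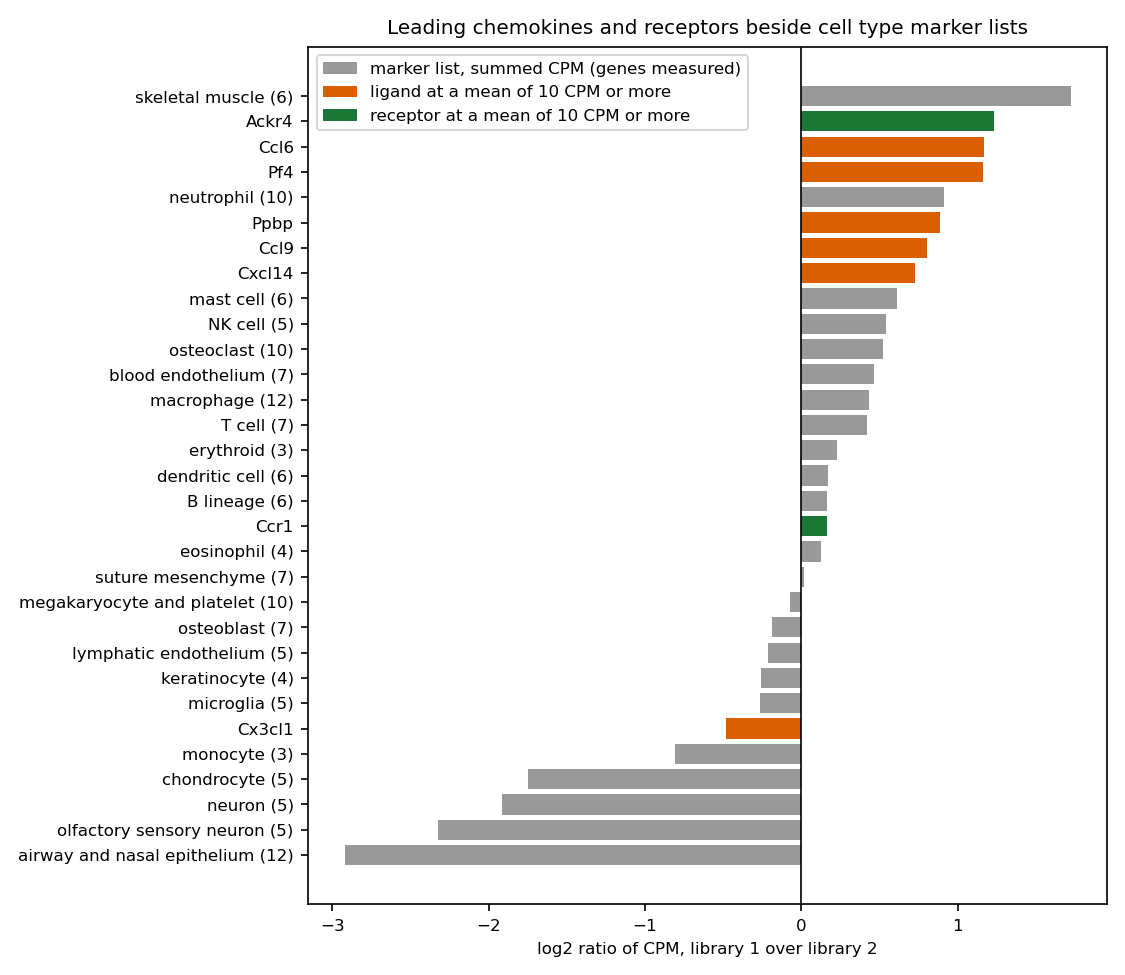
The log2 ratio of CPM, library 1 over library 2, for the 8 members averaging at least 10 CPM (coloured bars, ligands and receptors) and for the summed CPM of each cell type marker list (grey bars, genes measured in brackets). Skeletal muscle, neutrophil, mast cell, osteoclast, blood endothelium and macrophage lists, among others, lie to the right with Ackr4, Ccl6, Pf4, Ppbp, Ccl9 and Cxcl14. Airway, olfactory, neuron, chondrocyte, monocyte, microglia and osteoblast lists, among others, lie to the left, as Cx3cl1 does. A sum follows its most abundant gene, such as Fn1 among monocyte markers.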

How the data were processed

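Total RNA from sutures was turned into libraries with an amplicon panel of the mouse transcriptome, per the labels' protocols. The submitters' processing notes name genome build mm10. For the aligner and counter, the sources used here give no name. For 23930 targets in 2 libraries, CPM values were deposited by the authors. Values above 0 were whole multiples of 1 step per library, 0.177 CPM in library 1 and 0.0633 in library 2, with 100% of values whole at a tolerance of 0.01 read, so reads were recovered. A date in place of 27 symbols was undone from the target names.

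Recovered reads were compared between the libraries with an exact two-sided binomial test against the library totals, with Benjamini-Hochberg adjustment over all targets. It called 4084 targets higher in library 1 and 4779 higher in library 2. A limma or edgeR fit was not run, because 1 group of 2 libraries gives it no comparison. The test was checked on simulated reads drawn with counting error only, so the check does not cover spread between preparations. There it called 98.3% of 2-fold changes at 10 CPM or more and 34.1% at 1 to under 10 CPM. For 1.5-fold changes the shares were 79.4% and 3.12%, and for unchanged targets 0.0211%. Many changes of members under 10 CPM would thus be missed. Differences used log2(CPM + 1), which understates changes near 1 CPM. Poisson and binomial intervals are exact, at 95%. Coordinates are from GENCODE M21. Python 3.11.15 with scipy 1.17.1, pandas 2.3.3 and numpy 2.4.6 was used.

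The members, the 27 lists and the pairs were chosen with earlier results of these data known, and the airway list after its values could be seen. Pf4 and Cxcl14, whose receptors are debated, Cxcl15 and Cxcl17 were given no pair. Of the members, 1 that is counted in the totals is not reported here. By the naming rule every other member is accounted for, those averaging at least 1 CPM with both levels, those averaging at least 10 CPM also with reads, interval, difference and test, and of each list the 2 or 3 highest genes, which were not printed for every list. The promoters shown, the tests given for lower members, and list genes outside the highest were chosen after their values were seen. Alternatives were pseudocounts, detection thresholds, scaling by the median ratio or without the 10 highest targets, a filter on low values, and each library left out.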

Additional observations from a re-analysis of the deposited data

How the results depend on the processing

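With 2 CPM as the threshold, 10 ligands and 5 pairs were detected, against 16 and 10 at 1 CPM. Median levels ran from 1.17 to 1.41 CPM for ligands and from 0.530 to 0.633 CPM for receptors when each library was left out. Over the members averaging at least 1 CPM they were 3.55 and 6.04 CPM, and with totals that omit the 10 highest targets 1.86 and 0.837 CPM. The median log2 difference fell to 0.11 for ligands and 0 for receptors over all members, where genes near 0 enter. With a pseudocount of 5 CPM it was 0.23 for receptors. A pseudocount cannot change the direction of a difference and does not enter the test. Under the median ratio scaling (ratio 0.965), all 25 members averaging at least 1 CPM kept their direction and call. With targets averaging under 1 CPM left out, 12 members were called for library 1 and 2 for library 2. An added alternative without Cxcl17, Pf4 and Ppbp, chosen after seeing the data, left 11 members called for library 1 and 2 for library 2. These counts were fixed in advance, since each of the genes removed was itself called and the other calls do not depend on them. Depth limits the members under 10 CPM most. No paired analysis was possible because there is 1 group.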
